A study of Xenopus tropicalis with 26 samples.

Results

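The endoderm transcription factors are followed here through the blastula and gastrula of *Xenopus tropicalis*, a frog, in high K+ medium and in normal medium. They are 9 genes, chosen by name from the 34192 genes of the deposited table: the SOX factors *sox17a*, *sox17b.1* and *sox17b.2*, the paired-type homeobox factors *mixer* and *mix1*, the GATA zinc finger factors *gata4*, *gata5* and *gata6*, and the forkhead factor *foxa2*. All 9 are listed once in the table, and all 9 were among the 15019 genes that passed the filter on low values and were tested. The names were chosen without a rule on the values, but with earlier results of these data known.

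RNA was measured in 26 samples of whole embryos obtained by in vitro fertilization, 13 from embryos held in 10 mM KCl (high K+) and 13 from embryos in 1/9x MR, the normal embryonic medium (control), all at 25 °C. A sample pooled 10 embryos, and the samples of both conditions were taken every 30 min from stage 8, the mid-blastula, so that the 13 time points run from 0 to 6 h and into or past gastrulation. High K+ outside the cell depolarizes the membrane, and the comparison asks how the timed programme of gene expression differs in such embryos. Each condition is 1 time course, so neighbouring time points have to stand in for biological replicates. An SD given over the 13 time points is the spread of a course, and no error of a single value can be had.

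Endoderm, the germ layer of the gut and its glands, arises in *Xenopus* from the yolky vegetal cells. Maternal VegT in these cells switches on Nodal ligands, and Nodal signalling, acting through Smad2 and Foxh1, turns on the Mix-type homeobox genes, the Gata factors and the Sox17 genes. Sox17 proteins then hold the endodermal programme in place, Mixer acts upstream of them, the Gata factors go on to act in gut and heart, and Foxa2 opens chromatin in the later foregut and in the axial midline.

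The values are corrected abundances, made by the authors from TPM (a measure scaled by transcript length and library total) by adjusting for base composition with added ERCC spike-in RNAs, so levels may be compared between genes. Averaged over the 13 time points, *mixer* was the most abundant of the 9 genes, at 342 in high K+ embryos and 237 in control embryos, and *sox17a* followed at 246 in high K+ and 177 in control embryos. The lowest was *foxa2*, at 8.76 in high K+ and 9.56 in control embryos. Between these, the high K+ means descended from *mix1* (109) through *sox17b.2* (98.7), *gata4* (83.1), *sox17b.1* (43.3) and *gata6* (35.8) to *gata5* (22.9). In control embryos *gata6* (29.5) stood above *sox17b.1* (27.9) and the order was otherwise the same. In both conditions each gap between neighbours was smaller than the SD over time points of the upper gene, which in high K+ ran from 14.8 (*gata5*) to 374 (*mixer*), so neighbours in the order were not separated beyond the spread of their courses.

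The plot of abundance against time shows the courses of all 9 genes. At 0 h the most abundant was *gata5*, at 9.90 in the high K+ sample and 13.2 in the control sample, and none of the other 8 exceeded 2.90 (*sox17b.2* in high K+). From 1.5 to 3.5 h, the level of every one of the 9 genes was higher in high K+ than in control embryos at each of the 5 time points. At 4 and 5 h all 9 were lower in high K+. These directions are those of the values as deposited. The spike-in level itself differed between the conditions (log2, high K+ minus control), by 0.49 at 1.5 h and -0.53 at 4 h. The median log2 difference of the 9 genes was 0.90 and -0.29 at these times. The direction of a small gap, as at 4 h, therefore depends on the scaling. In whole embryos, fewer cells of a type and less RNA per cell cannot be told apart.

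**Figure D1:**
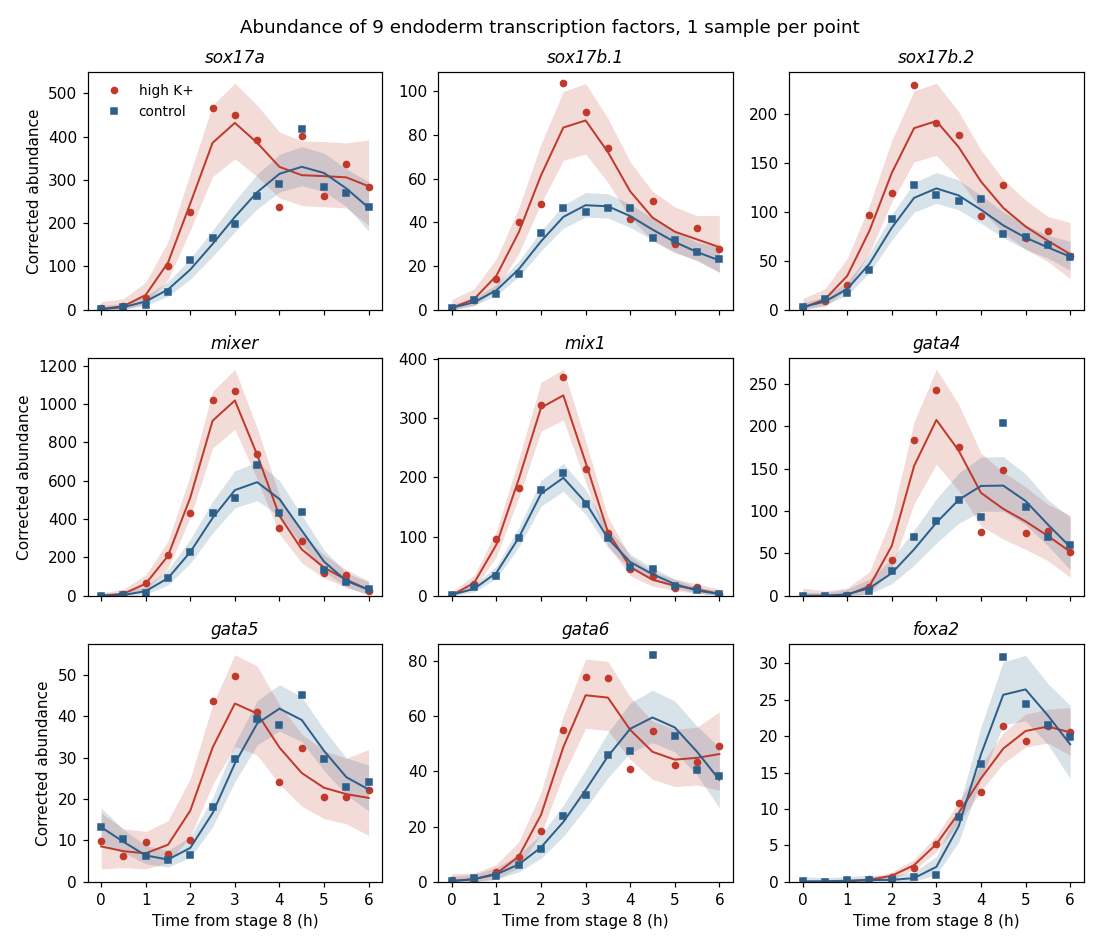
Corrected abundance (vertical axis, linear) of the 9 genes against time from stage 8 in hours, with 1 point per sample, high K+ as red circles and control as blue squares. Lines and shaded bands are the median and the 95% band of the Gaussian process fitted to each condition. The red points lie above the blue ones between 1.5 and 3.5 h in all 9 panels, and the single control points at 4.5 h stand high for *gata4* (204), *gata6* (81.9) and *foxa2* (30.8).

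Whether a gene's course differed between the conditions was tested with a Gaussian process, a smooth curve fitted to each gene over time, as in the methods of the study. A gene was called where the log-likelihood ratio of separate fits over a shared fit was above 0. Of the 9 genes, 5 were called activated, meaning higher on average in high K+: *sox17b.1* (log-likelihood ratio 5.31), *mix1* (4.04), *sox17a* (3.20), *mixer* (2.16) and *sox17b.2* (0.84). None was called repressed. Among all tested genes 29.6% were called activated and 9.26% repressed. The Gata factors and *foxa2* were not called, with ratios of -0.25 for *gata6*, -1.57 for *gata5*, -1.71 for *gata4* and -2.20 for *foxa2*. The number called depended on the scaling: with each time point set to a median ratio of 1 over all tested genes it was 2 (*sox17a* and *sox17b.1*), and with samples set to their spike-in level it was 1 (*sox17b.1*). It also depended on single time points, with 2 genes called without 2.5 h, 3 without 3 h and 7 without 4.5 h. No share over all tested genes was computed for these alternative counts.

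A second test asked when the conditions differed. The log2 differences between the samples of a time point, high K+ minus control after adding 1 to each abundance, were averaged over 3 consecutive time points and tested across all genes with limma, with Benjamini-Hochberg adjusted p-values. At 0.5 to 1.5 h, 3 of the 9 genes rose in high K+, where 16.6% of all tested genes did. At 2 to 3 h, 8 of 9 rose, where 21.1% of all genes did, and the ninth was *sox17b.2*. At 3.5 to 4.5 h and at 5 to 6 h the limma count of genes that rose was 0 of 9, beside 0.559% and 1.5% of all genes. In either window 0 of 9 had an unadjusted p under 0.05, beside 2796 and 2688 of the 15019 tested genes. None of the 9 fell in any window.

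The 2 to 3 h result rests on a few samples and on the scale. Without the 2.5 h samples 0 of 9 genes were called in that window, and without the 3 h samples 2 were. With samples set to their spike-in level 0 were called, with log2 differences between 0.40 (*sox17b.2*) and 0.98 (*sox17a*) and adjusted p between 0.0713 and 0.347 in limma, and with a median ratio of 1 it was 7. In the early window, 0 were called without the 1 h samples, 1 without 1.5 h and 5 without 0.5 h, and 0 at the spike-in level. No share over all tested genes was computed for these counts. A loss of calls in the 9 genes therefore cannot be told from a loss across all genes.

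**Figure D2:**
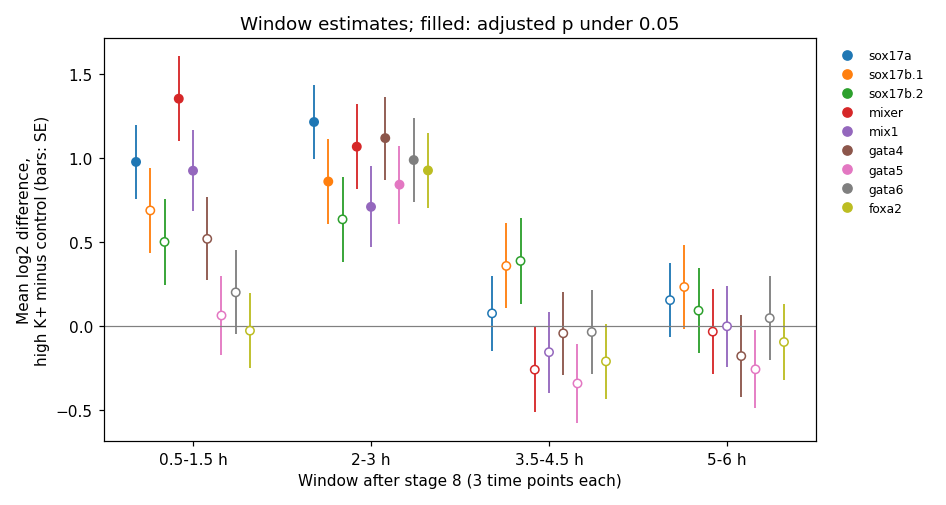
Mean log2 difference, high K+ minus control, of each of the 9 genes (colours) in 4 windows of 3 time points each, with bars of 1 SE from limma and filled circles where the adjusted p was under 0.05. Filled circles number 3 at 0.5 to 1.5 h, 8 at 2 to 3 h and 0 in the later windows, where the estimates lie on both sides of 0.

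*sox17a* encodes a Sox17 protein of the endoderm, and of the 9 genes it had the largest estimate at 2 to 3 h. Its level had a lowest, median and highest value of 2.85, 264 and 466 in the 13 high K+ samples, and of 2.74, 198 and 418 in the 13 control samples. The ranges overlapped, since both courses began near 0 and the level was higher in control embryos from 4 to 5 h. From 1 to 3 h, however, the level was far higher in high K+. At 1 h it stood at 26.8 in high K+ against 10.3 in control, at 1.5 h at 102 against 40.8, at 2 h at 227 against 114, at 2.5 h at 466 against 167 and at 3 h at 451 against 198. The high K+ course thus had its highest value at 2.5 h, and the control course had its highest value at 4.5 h. The log2 difference in limma was 1.22 (SE 0.22, adjusted p = 0.0038) at 2 to 3 h and 0.98 (SE 0.22, adjusted p = 0.0149) at 0.5 to 1.5 h, and 0.15 (adjusted p = 0.781) at 5 to 6 h.

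The *sox17b.1* and *sox17b.2* genes encode closely related Sox17 proteins, and their courses ran nearly parallel. *sox17b.1* had a lowest, median and highest level of 0.98, 40.2 and 104 in high K+, and of 0.75, 31.8 and 46.7 in control embryos. *sox17b.2* ran from 2.90 through a median of 95.5 to 229 in high K+, and from 2.52 through 74.6 to 127 in control embryos. For both, the samples of 2.5 h and 3 h in high K+ were the highest of the 26. At 2.5 h *sox17b.1* stood at 104 in high K+ against 46.6 in control, and *sox17b.2* at 229 against 127. By limma the difference at 2 to 3 h was 0.86 (SE 0.25, adjusted p = 0.0255) for *sox17b.1* and 0.64 (SE 0.25, adjusted p = 0.0823) for *sox17b.2*, which did not pass.

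At 4.5 h, these 2 genes were the only ones of the 9 that were higher in high K+: *sox17b.1* at 49.98 against 33.05 in control and *sox17b.2* at 128 against 77.1. Over all tested genes the median log2 difference at that time point was -0.38. The difference of *sox17b.1* was higher than that of 95.7% of all tested genes and that of *sox17b.2* higher than 96.9%, while for the other 7 genes this share was between 30.0% (*mixer*) and 75.1% (*sox17a*).

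In the RefSeq gene order the 3 Sox17 genes are consecutive on chromosome 6, as *sox17a*, *sox17b.1* and *sox17b.2*. Reads that fit more than 1 copy are divided by estimation, so the split between *sox17b.1* and *sox17b.2* may be uncertain. The identity of the 2 copies was not measured here, and their sum is given beside them. *sox17b.1* made up 25.3% to 36.1% of that sum in the 13 high K+ samples and 22.9% to 30.0% in the 13 control samples. The sum reached 333 in high K+ against 174 in control at 2.5 h, and as 1 gene it had a log-likelihood ratio of 2.18. All 3 Sox17 genes together reached 799 in high K+ against 341 in control at 2.5 h, with a ratio of 4.16. The share of *sox17a* in the total was 42.4% in high K+ and 45.6% in control at 0 h, where all 3 levels were low. It was 38.0% in high K+ and 28.6% in control at 0.5 h, and 77.4% in high K+ and 75.6% in control at 6 h. Its share was thus higher at the end than at the start of both courses.

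*mixer* encodes a homeodomain activator that works with Smad proteins at Nodal-responsive promoters and acts upstream of *sox17* genes in *Xenopus*. Its lowest, median and highest levels were 0.369, 215 and 1067 in high K+, and 0.434, 134 and 685 in control embryos. It had the widest range of the 9 genes. At 1 h *mixer* stood at 69.4 in high K+ against 15.6 in control, a log2 difference of 2.09 with the pseudocount of 1. It was the largest of any of the 9 genes at any time point on that scale and higher than 99.2% of all tested genes at 1 h. Without a pseudocount the ratio of 4.46 was below those of *gata4* at 1 h (7.88) and *foxa2* at 3 h (5.35), both over control levels under 1. At 2.5 h it stood at 1021 in high K+ against 432, and at 3 h at 1067 against 512. From 4 to 5 h *mixer* was lower in high K+, at 288 against 438 in control at 4.5 h, and at 5.5 h it stood at 109 against 72.2. In limma the difference was 1.36 (SE 0.25, adjusted p = 0.0106) at 0.5 to 1.5 h, 1.07 (SE 0.25, adjusted p = 0.0103) at 2 to 3 h and -0.26 (SE 0.25, adjusted p = 0.615) at 3.5 to 4.5 h.

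*mix1*, an immediate target of activin and Nodal signalling, reached 50% of its peak before the other 8 genes in both conditions, and it kept the least of its peak at 6 h. Its lowest, median and highest levels were 1.15, 44.9 and 369 in high K+, and 1.60, 45.2 and 207 in control embryos. Both courses peaked at 2.5 h, and at 6 h the high K+ sample held 0.633% of its peak and the control sample 1.49%. The gap was early: at 1 h *mix1* stood at 95.7 in high K+ against 33.9 in control, at 2 h at 322 against 179, and by 3.5 h at 106 against 97.3. Its limma difference was 0.93 (SE 0.24, adjusted p = 0.0215) at 0.5 to 1.5 h and 0.71 (SE 0.24, adjusted p = 0.0463) at 2 to 3 h. The adjusted p of the later window was 0.0974 with a median ratio of 1 at each time point, and 0.0565 over genes with a mean abundance of at least 1.

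*mixer* and *mix1* are neighbours on chromosome 5 in the RefSeq order, yet their courses differed in timing. The ratio of *mixer* to *mix1* was 0.32 in the high K+ sample and 0.27 in the control sample at 0 h, and at 6 h it was 10.7 in high K+ and 11.9 in control. It passed 1 between 1 and 1.5 h in high K+ (0.726 and 1.19) and between 1.5 and 2 h in control embryos (0.974 and 1.29).

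*gata4* encodes a GATA factor of endoderm and heart. Its lowest, median and highest levels were 0.105, 73.9 and 243 in high K+, and 0.0596, 69.0 and 204 in control embryos. It was nearly silent up to 1 h in both conditions, and then stood at 184 in high K+ against 69.1 in control at 2.5 h and at 243 against 88.3 at 3 h. The control course was highest at 4.5 h, in a single sample at 204 with neighbours at 92.8 and 105. By limma *gata4* rose at 2 to 3 h, by a log2 difference of 1.12 (SE 0.25, adjusted p = 0.00763). Its log-likelihood ratio was 4.58 without the 4.5 h samples, the only 1 of 13 time points whose omission gave a call. With all time points kept, it was also not called with a median ratio of 1 (-2.75) or at the spike-in level (-3.45).

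*gata6*, a second GATA factor of endoderm and heart, followed *gata4* closely. It ran from 0.522 through a median of 42.3 to 74.2 in high K+, and from 0.215 through 31.5 to 81.9 in control embryos. At 2.5 h its level was 54.8 in high K+ against 23.8 in control, and at 3 h 74.2 against 31.5, which gave a log2 difference of 0.99 at 2 to 3 h in limma (SE 0.25, adjusted p = 0.0136). The highest control value again came from the single 4.5 h sample, and without that time point the log-likelihood ratio was 6.22.

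*gata5*, which induces *sox17* genes in frog ectoderm explants, was the only Gata factor of the 3 with clear transcript at 0 h. Its lowest, median and highest levels were 6.20, 20.6 and 49.7 in high K+, and 5.32, 22.8 and 45.0 in control embryos. At 0 and 0.5 h it was lower in high K+ (9.90 and 6.20, against 13.2 and 10.5 in control), and at 2.5 h it stood at 43.7 in high K+ against 18.1 in control. From 4 h on each of the 5 high K+ samples was below its control. The mean log2 difference over the course was 0.04 ± 0.60 (SD over 13 time points), and it was -0.05 and -0.08 with a median ratio of 1 and at the spike-in level. At 2 to 3 h the limma difference was 0.84 (SE 0.23, adjusted p = 0.0199).

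*foxa2* encodes the forkhead pioneer factor of foregut and midline and was the last of the 9 to appear. Its lowest, median and highest levels were 0, 5.21 and 21.3 in high K+, and 0, 0.976 and 30.8 in control embryos, and the value of 0 was listed at 0.5 h in both. At 3 h it stood at 5.21 in high K+ against 0.976 in control, a log2 difference of 1.65 that was higher than 98.6% of all tested genes. Between 4 and 5 h the high K+ samples were lower, at 12.3, 21.3 and 19.3 against 16.2, 30.8 and 24.4 in control, and at 6 h the level was 20.6 in high K+ against 19.9 in control. The limma difference was 0.93 at 2 to 3 h (SE 0.23, adjusted p = 0.0113). The log2 difference of such a low gene depends on the pseudocount. Its mean over the course was 0.21 with a pseudocount of 0.1, 0.13 with 1 and -0.002 with 10. Samples set to their spike-in level gave the 1 repressed call among the 9 genes, for *foxa2*, with a log-likelihood ratio of 0.61. Its mean log2 difference there was 0.125, so the fitted curves and the mean log2 difference pointed in opposite directions.

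At some time points a gap between conditions also appeared in the median over all tested genes. The level was higher in high K+ for 86.2% of them at 1.5 h, 70.1% at 3 h and 20.9% at 4.5 h. The median log2 difference over all 15019 tested genes was 0.48 at 1.5 h, 0.25 at 3 h and -0.38 at 4.5 h, and between -0.01 and 0.20 at the other time points. The 9 genes had a median of 0.64 at 1 h, 0.90 at 1.5 h, 0.57 at 2 h, 1.17 at 2.5 h, 1.06 at 3 h and 0.58 at 3.5 h, and of -0.29 at 4 h, -0.46 at 4.5 h and -0.31 at 5 h. Relative to the all-gene median, all 9 genes were higher at 2, 2.5 and 3 h, 7 of 9 at 1.5 h and 3 of 9 at 4.5 h, and none was higher at 4 and 5 h. At 2.5 h, the gene lowest among the 9 was *foxa2* and it still lay higher than 82.2% of all tested genes. The spike-in level itself differed between the samples of a time point by -0.53 to 0.68 (log2, high K+ minus control), and the values given at the spike-in level allow for it.

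**Figure D3:**
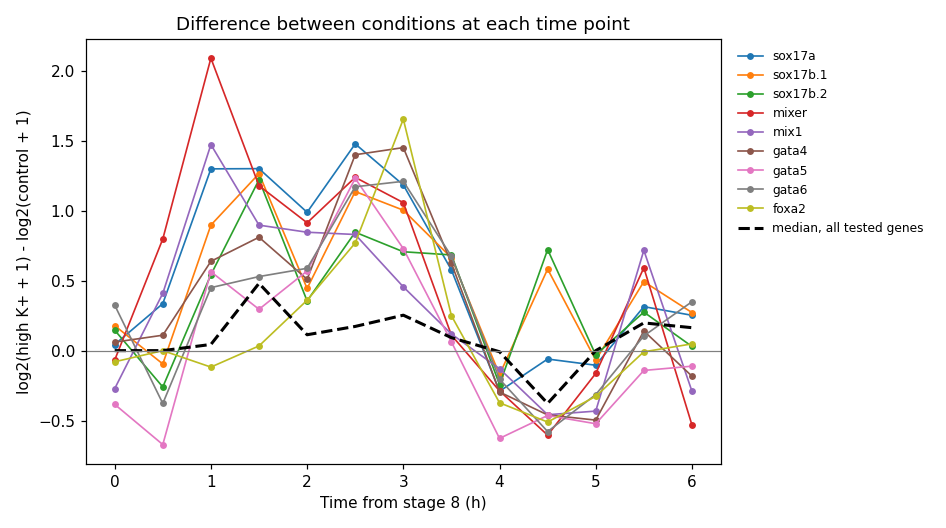
Log2 difference between the high K+ and the control sample of each time point (vertical axis) against time from stage 8 in hours, for the 9 genes (coloured lines) and for the median of all 15019 tested genes (dashed black). All 9 genes lie above the dashed line at 2, 2.5 and 3 h and below it at 4 and 5 h.

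Averaged over the whole course, the log2 difference was 0.56 ± 0.61 for *sox17a*, 0.51 ± 0.48 for *sox17b.1*, 0.49 ± 0.81 for *mixer* and 0.38 ± 0.45 for *sox17b.2* (SD over 13 time points). It was 0.33 ± 0.64 for *gata4*, 0.32 ± 0.61 for *mix1*, 0.30 ± 0.56 for *gata6* and 0.13 ± 0.56 for *foxa2*. The mean was above 0 for all 9 genes, and for 8 of 9 under either rescaling, *gata5* being the exception. The median over the 9 genes was 0.33, beside 0.08 over all tested genes. With a pseudocount of 10 the mean of *foxa2* was -0.002. Whether the difference at 5 to 6 h was smaller than that at 2 to 3 h was tested as a contrast in limma. It gave estimates between -0.54 (*sox17b.2*) and -1.30 (*gata4*), and 0 of 9 genes passed, with adjusted p between 0.319 and 0.545. An unadjusted p under 0.05 was reached by 6 of 9 genes and by 1709 of all 15019 tested genes, of which 1 passed after adjustment.

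The heights and times of the peaks describe the same courses in another way. The peak was higher in high K+ for 7 of the 9 genes, and the ratio of peaks was largest for *sox17b.1* (2.22) and then *sox17b.2* (1.80), *mix1* (1.78) and *mixer* (1.56). It was 1.19 for *gata4*, 1.11 for *sox17a* and 1.1 for *gata5*, and 0.905 for *gata6* and 0.693 for *foxa2*, whose control peaks lay in the 4.5 h sample. Without the 4.5 h samples the ratios were 2.14 for *gata4*, 1.60 for *sox17a*, 1.4 for *gata6*, 1.27 for *gata5* and 0.873 for *foxa2*. At the spike-in level the peak was higher in high K+ for 4 of the 9 genes, and the ratios turned to 0.868 for *sox17a*, 0.821 for *gata4* and 0.761 for *gata5*.

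The highest sample came earlier in high K+ for 6 genes, at the same time for *sox17b.2* and *mix1* (2.5 h in both conditions), and later for *foxa2* (5.5 h against 4.5 h). *gata4*, *gata5* and *gata6* peaked at 3 h in high K+ against 4.5 h in control, *sox17a* at 2.5 h against 4.5 h, *sox17b.1* at 2.5 h against 4 h and *mixer* at 3 h against 3.5 h. The control level of *sox17b.1* was nearly flat, at 46.6 at 2.5 h and 46.7 at 4 h. With a median ratio of 1, the highest sample came earlier in high K+ for 4 genes and at the same time for 5, among them *sox17a* and *foxa2* (4.5 h in both conditions) and *sox17b.1* (2.5 h in both).

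The time at which a course first reached 50% of its own peak, read between samples, does not change if the whole course is multiplied by a constant. It does depend on the highest sample, since a higher peak sets a higher level to be reached. It was earlier in high K+ for 7 of the 9 genes, and the median over the 9 genes of high K+ minus control was -0.45 h, where samples were 0.5 h apart. This median was -0.19 h without the 4.5 h samples, -0.18 h without 3.5 h and -0.19 h with a median ratio of 1, where 5 of the 9 genes were earlier and *mix1* and *foxa2* turned later. *gata6* reached it at 2.26 h in high K+ against 3.33 h in control, *sox17a* at 2.01 h against 3.09 h and *gata4* at 2.28 h against 3.27 h. *gata5* did so at 2.22 h in high K+ against 2.69 h, *foxa2* at 3.49 h against 3.94 h, *mixer* at 2.08 h against 2.28 h and *mix1* at 1.51 h against 1.54 h. For *sox17b.1* (2.03 h in high K+ against 1.69 h) and *sox17b.2* (1.90 h against 1.72 h) it was later, but without the 2 h samples both were earlier, by -0.05 h and -0.13 h, and without 2.5 h *sox17b.2* was, by -0.18 h. The levels of both were already higher in high K+ at 1.5 h, at 40.2 against 16.2 in control for *sox17b.1* and 97.0 against 41.1 for *sox17b.2*. The wide gaps of *sox17a*, *gata4* and *gata6* came with the control sample at 4.5 h, and without that time point the control values were 2.30 h for *sox17a*, 2.35 h for *gata4* and 2.67 h for *gata6*. No error can be given for these times, since each is read from a single course.

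**Figure D4:**
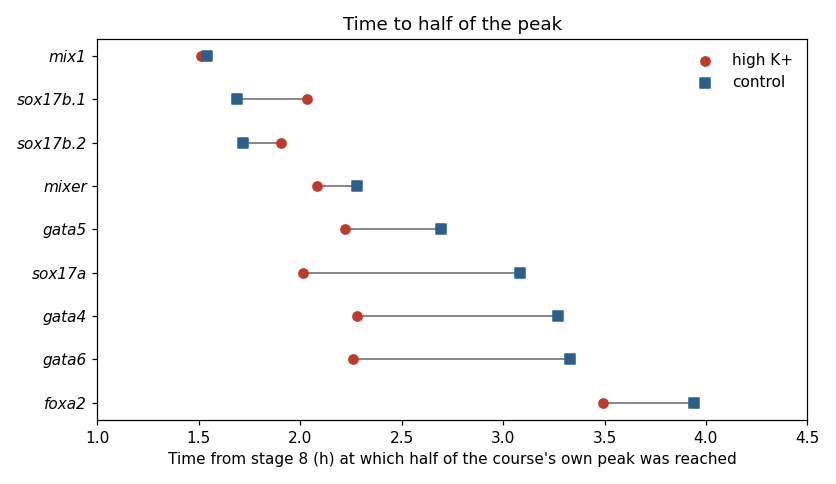
Time from stage 8 (horizontal axis, hours) at which each gene first reached 50% of the peak of its own course, high K+ as red circles and control as blue squares, with 1 course per condition and the genes in the order of the control values. High K+ lies to the left for 7 genes (5 with a median ratio of 1), by most for *gata6*, *sox17a* and *gata4*, and to the right for *sox17b.1* and *sox17b.2* (to the left without the 2 h samples).

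Setting the high K+ course 30 min earlier against control gave calls for all 9 genes, and setting it 30 min later gave 3, for *mix1* (log-likelihood ratio 6.08), *sox17b.1* (4.04) and *sox17b.2* (1.16). The shifts were not run over all tested genes, so no share of all genes can be set beside these counts. The comparison as made takes both courses as staged alike at 0 h.

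Among themselves, the 9 genes fell along their times of expression. Over the 26 samples on the log2(abundance + 1) scale, Pearson's r, given as a description because all 9 genes share the samples and their order in time, was 0.997 between *sox17b.1* and *sox17b.2*, 0.982 between *sox17a* and *gata6*, 0.980 between *gata4* and *gata6*, and 0.961 between *mixer* and *sox17b.2*. At the other end it was 0.09 between *mix1* and *gata5* and -0.24 between *mix1* and *foxa2*, the first and the last of the 9 to reach 50% of their peaks.

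The genes whose courses were most like each member were found the same way. For *mixer* they were *lefty* (r = 0.97), a Nodal antagonist, *gsc* (0.97), a homeobox gene of the organizer, and *prr18* (0.96). For *sox17a* they were *xbp1* (0.99), a factor of the unfolded protein response, *ventx1.2* (0.99), a ventral homeobox gene, and LOC108644458 (0.99). *gata4* was most like LOC100485974, *t* and *frzb* (0.99 each), where *t* is the Brachyury gene of the mesoderm and *frzb* encodes a secreted Wnt antagonist. *gata6* was most like LOC101732705, the Wnt ligand gene *wnt5b* and *arl4c* (0.99 each), and *foxa2* like LOC108644713, the forkhead gene *foxc2* and the zinc finger gene *sp5* (0.99 each). *mix1* was most like LOC101734579 (0.98), the Mix-type gene *bix1.1* (0.97) and *rasd1* (0.96), and *gata5* like *lpar4* (0.93), *spns2* (0.92) and *prdm14* (0.92). Besides each other, *sox17b.1* was most like LOC105946664 (0.98) and MGC76328 (0.97), and *sox17b.2* like MGC76328 and LOC101733183 (0.97 each).

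Other genes of the endoderm network, from maternal and Nodal regulators to later endoderm and organizer factors, were counted from a list of 32 symbols, of which 30 genes were tested. By the log-likelihood ratio 11 of the 30 were called activated (36.7%, beside the 29.6% of all genes) and 0 repressed, and the median of their mean log2 differences was 0.24, beside 0.08. The count of activated genes was 3 at the spike-in level, where no share over all tested genes was computed. The 3 with the largest ratios were *vegt*, the T-box gene whose maternal product heads the endoderm programme, *dand5*, which encodes a secreted Nodal inhibitor, and *foxh1*, which encodes the DNA-binding partner of Smad2. Isoforms were summed, so maternal and later transcripts of *vegt* are not told apart. *vegt* averaged 530 in high K+ and 278 in control embryos (log-likelihood ratio 10.2), *dand5* 266 and 146 (8.93), and *foxh1* 397 and 208 (8.10), and in all 13 pairs of samples *vegt* was the more abundant under high K+. By limma 11 of the 30 rose at 0.5 to 1.5 h and 14 at 2 to 3 h, where 16.6% and 21.1% of all tested genes rose.

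The *nodal* ligand genes themselves were not called. The log-likelihood ratio was -1.23 for *nodal2*, -6.0 for *nodal5*, -6.96 for *nodal6* and -8.29 for *nodal1*, and -3.91 and -15.6 for the 2 genes listed as *nodal*. *nodal2* averaged 13.6 in high K+ and 9.79 in control embryos. The ligand genes *gdf3* and *gdf1* of the same list were called activated, with log-likelihood ratios of 6.41 and 5.94.

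The remaining tested GATA genes, *gata2* and *gata3*, which in frog embryos are known from ventral tissue and non-neural ectoderm, were not called by the log-likelihood ratio (-4.14 and -0.83). Both rose at 2 to 3 h in limma, *gata2* with a log2 difference of 1.09 (adjusted p = 0.0116) and *gata3* with 0.96 (adjusted p = 0.0142). *gata1* was listed but did not pass the filter.

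Markers of the other germ layers were counted beside these genes. Of 8 tested mesoderm markers 1 was called activated, *wnt8a* (log-likelihood ratio 5.35), and 3 were called repressed, *mespa* (0.87), *myod1* (0.72) and *mespb* (0.08), with a median mean log2 difference of -0.05. Of 14 tested ectoderm markers 3 were called activated, *sox3* (9.51), *foxi4.2* (6.52) and *tfap2c* (0.87), and 4 repressed, led by *dlx5* (2.5), *sox2* (1.73) and *trim33* (0.74), with a median of 0.01. The direction of a call is that of the fitted curves on the linear scale. Among the repressed calls, the mean log2 difference was 0.02 for *dlx5*, -0.04 for *sox2*, -0.29 for *trim33* and -0.65 for *grhl3*. It was -0.03 for *myod1*, -0.38 for *mespb* and -0.55 for *mespa*. Of all tested genes 29.6% were called activated and 9.26% repressed. In the 2 to 3 h window, 3 of the 8 mesoderm markers and 1 of the 14 ectoderm markers rose by limma, and 1 ectoderm marker (*grhl3*) fell, where 21.1% of all tested genes rose and 3.71% fell. The median log2 difference in that window was 0.481 over the mesoderm markers and 0.135 over the ectoderm markers. It was 0.927 over the 9 endoderm factors, 0.429 over the endoderm network list and 0.169 over all tested genes. The 8 of 9 endoderm factors that rose in that window became 0 at the spike-in level and 0 without the 2.5 h samples. The marker lists and all tested genes were not counted under those settings, and the germ layers were not compared by a test.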

How the data were processed

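Whole-embryo RNA was measured in 13 high K+ and 13 control samples of 10 embryos each. The authors aligned reads to Xt9.1 with STAR, estimated TPM per isoform with RSEM, corrected them for dinucleotide content with ERCC spike-ins separately for each condition, and summed isoforms. The signal values were used as deposited, that is, as corrected abundances and not counts, so depth and counting error are unknown. The separate correction is confounded with condition, and its part in the differences cannot be told apart.

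Genes with abundance over 0.4 in 6 consecutive samples of a condition were tested, with no further scaling. Gaussian processes used the transform (alpha 1, beta 1000), kernel and priors of the study's methods, run with numba 0.67.0, scipy 1.17.1, numpy 2.4.6 and pandas 2.3.3 under Python 3.11.15. Figures were drawn with matplotlib 3.10.9. The window test used limma 3.58.1 (R 4.3.3) on differences of log2(abundance + 1) within time points, with 0 h a term of its own and adjusted p-values under 0.05 called. Both were run on simulated courses with noise drawn independently for each gene and sample. Those runs held no shift shared by the genes of a sample and no difference in staging. They do not measure false calls from either. Samples of a time point share its label, and their deviations from the condition means correlated at 0.573 to 0.924 over the 13 pairs, a value that includes the time course itself. Time points of 1 course are not replicates, so p-values measure only the spread between them.

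The 9 genes and the lists were chosen with earlier results of these data known. All 9 are named, and of each list the 3 called genes with the largest log-likelihood ratio in each direction, and for each of the 9 the 3 genes with a symbol and the highest r. The *nodal* genes, *gdf1*, *gdf3*, *gata2*, *gata3* and *grhl3* were named after their values were seen. Symbols *bix1.2*, *bix1.3*, *tbx6* and *zic1* matched no gene here. Gene order came from RefSeq annotation of UCB_Xtro_10.0, another build than that of the files, so no coordinates are given. Other scalings, filters, transforms, pseudocounts, shifts of 30 min, tests and leaving out each time point were tried. Sequences were not used here.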

Additional observations from a re-analysis of the deposited data

How the results depend on the processing

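The 5 calls among the 9 genes became 2 with a median ratio of 1 at each time point, 1 at the spike-in level, 2 with a log2 transform, 1 by the Bayesian information criterion (a ratio above 4.89), 9 with the high K+ course set 30 min earlier and 3 with it set 30 min later. With the mean of each gene subtracted before the fit the count was 7, with *gata5* (log-likelihood ratio 1.88) and *gata6* (0.94) also called activated. No share over all tested genes was computed for these alternative counts. In place of the Gaussian process, limma over all time points called 3 genes with the time number as a replicate block (*sox17b.1*, adjusted p = 0.00461, *sox17a*, 0.00873, and *sox17b.2*, 0.0181) and 0 with no replicate block. Of all 15019 tested genes, limma called 4052 higher with the block and 612 without it. Fits with no replicate block, here and in the windows below, ignore the matching of samples by time point. They leave change over time in the error, which is large for these 9 genes. A count of 0 from such a fit therefore cannot show that a gap was absent. By the Gaussian process, leaving out each time point in turn gave 2 to 7 calls among the 9 genes. The 11 calls of the endoderm network list became 3 at the spike-in level. The 3 genes higher at 0.5 to 1.5 h and the 8 higher at 2 to 3 h became 0 and 0 at the spike-in level and 0 and 0 with no replicate block, and leaving out each time point gave 0 to 5 and 0 to 9. For these window counts too, no share over all tested genes was computed. Leaving out 0 h was not run for the window test, since that time point has a term of its own. The counts of 0 in the 2 later windows were the same under all 20 alternatives run. The median of -0.45 h in the time to 50% of the peak ran from -0.46 h (without 3 h) to -0.18 h (without 3.5 h) over 15 alternatives, within its spread over genes. That spread is not an error of the median, since each time is read from 1 course. The 15 did not include the shifts of 30 min. The median turned to 0.05 h with the high K+ course set 30 min later and was -0.95 h with it set 30 min earlier. Of the single genes, *sox17b.1* alone stayed above a ratio of 0 in all 20 alternatives. Its split from *sox17b.2*, which lost its call in 8 of them, may be uncertain, and their sum was not run under them. No call turned to the opposite direction, but the mean log2 difference of *gata5* did (-0.05 and -0.08 under the rescalings), and that of *foxa2* was -0.002 with a pseudocount of 10. The peak ratios of *sox17a*, *gata4* and *gata5* also turned at the spike-in level, and *foxa2*, not called before, was called repressed there. The cause of the lost calls was not tested. Depth is unknown, 1 course per condition gives no biological error, and the *foxa2* values before 2.5 h, all under 1, limit what can be compared there.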
